A study of Mus musculus with 6 samples.

Results

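The carboxylesterases Ces1d, Ces1e, Ces1f, Ces1g, Ces2a, Ces2b, Ces2c, Ces2e and Ces2g were followed in intestinal RNA of mice with and without SHP. They were taken by gene symbol from the gene counts, 9 of 23284 genes, and the files hold 18 carboxylesterase genes in all. Nr0b2 encodes SHP (small heterodimer partner), which belongs to the nuclear receptors, lacks their DNA-binding domain and represses other transcription factors. The wild-type (WT) group and the SHP-KO group each had 3 libraries from male mice of 8 weeks, sampled 6 h after food was returned at the end of an overnight fast. Jejunum and ileum went into each library together, in a share that the labels do not give. The labels name the knockout only as SHP-KO, with no allele, strain or driver, and do not say that each library is a separate mouse. A p-value here is therefore set against library-to-library spread that may be purely technical.

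Carboxylesterases are serine hydrolases that cut ester, thioester and amide bonds. Most enzymes of the Ces1 and Ces2 families sit in the lumen of the endoplasmic reticulum (ER), where they act on acylglycerols and cholesteryl esters and turn ester prodrugs into acids and alcohols. In the intestine the Ces2 enzymes of enterocytes are known as the main esterases that swallowed esters meet, while several Ces1 enzymes are best known as lipases of liver and fat. In liver, Ces genes are known to be induced through the xenobiotic receptors CAR and PXR.

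The knocked-out gene was checked first. Nr0b2 held 31, 14 and 23 counts in WT replicates 1 to 3 and 1, 0 and 0 counts in SHP-KO replicates 1 to 3, which fits the labels. Total counts were 11265437 to 13511800 in WT and 7956528 to 9289543 in SHP-KO. Counts were made without molecular identifiers. Intervals given here are for counts summed over the libraries of each group. They cover counting error only, not the spread between libraries. Below, CPM is the count relative to the TMM-scaled library total, and CPM per kb is CPM divided by the exon length in kb given in the count files, the scale used to set genes against each other. Log2 fold changes are SHP-KO over WT with their standard error (SE). Adjusted p-values come from edgeR's quasi-likelihood test with Benjamini-Hochberg adjustment over the 12106 genes that passed a filter on low counts, and a gene was called at an adjusted p under 0.05.

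Promoter sequences of RefSeq (build GRCm38.p6, another build than that of the counts) were matched by symbol to 6 of the 9 genes, Ces1e, Ces1g, Ces2a, Ces2c, Ces2e and Ces2g. The 250 bases before the RefSeq start of the 4 Ces2 genes are shown because these genes differed most among themselves in how they moved. The 12 capitals nearest the end mark the block CAATNNGAACTT, and the first capitals in Ces2a mark AGGTCA, a hexamer that many nuclear receptors bind.
Ces2a, chr8:104733753-104734002, plus strand: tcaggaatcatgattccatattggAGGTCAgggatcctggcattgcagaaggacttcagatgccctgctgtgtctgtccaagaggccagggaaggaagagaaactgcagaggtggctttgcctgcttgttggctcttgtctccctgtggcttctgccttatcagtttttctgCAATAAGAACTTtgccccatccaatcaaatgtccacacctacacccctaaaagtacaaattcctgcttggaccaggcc
Ces2c, chr8:104846818-104847067, plus strand: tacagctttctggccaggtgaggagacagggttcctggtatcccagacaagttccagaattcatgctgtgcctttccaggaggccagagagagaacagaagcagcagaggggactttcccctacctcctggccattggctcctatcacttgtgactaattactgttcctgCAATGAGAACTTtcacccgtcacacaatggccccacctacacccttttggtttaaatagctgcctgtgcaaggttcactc
Ces2e, chr8:104926010-104926259, plus strand: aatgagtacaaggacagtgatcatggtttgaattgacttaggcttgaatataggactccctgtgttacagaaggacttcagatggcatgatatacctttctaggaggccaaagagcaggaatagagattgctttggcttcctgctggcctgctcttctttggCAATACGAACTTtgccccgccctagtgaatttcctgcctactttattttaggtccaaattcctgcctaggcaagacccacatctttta
Ces2g, chr8:104961468-104961717, plus strand: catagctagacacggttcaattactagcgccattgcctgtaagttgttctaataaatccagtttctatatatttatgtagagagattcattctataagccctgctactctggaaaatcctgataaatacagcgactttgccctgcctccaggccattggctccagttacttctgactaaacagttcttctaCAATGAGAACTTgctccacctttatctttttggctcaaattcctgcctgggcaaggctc
The block was found by a search for the 12-base stretch with the most columns shared by the 4 promoters, made after the values were seen, and 10 of its 12 columns were identical. Counted back from the start, it ran from -78 to -67 in Ces2a, -80 to -69 in Ces2c, -88 to -77 in Ces2e and -59 to -48 in Ces2g. On either strand, 29 of all 32851 RefSeq promoter windows (250 bases before to 50 after a start) held it, 0.0883%, these 4 included, and neither Ces1 promoter did. The hexamers AGGTCA or AGTTCA occurred on either strand in 27.7% of all windows and in 1 of the 6 matched here, Ces2a at -226 to -221. No window of the 6 held a pair of these hexamers as a direct repeat with a spacer of 1, 3, 4 or 6 bases or as an everted repeat with a spacer of 3, 4 or 6, nor CAAGGTCA, which 1.56% of all windows held. By global alignment with gaps left out, identity was highest for the promoters of Ces2c and Ces2g, at 68.5% of aligned bases (48 gap bases). Those of Ces2a and Ces2c followed at 68.2% (16 gap bases). A Ces1 promoter set against a Ces2 promoter gave 44.6% to 57.8%. The levels of Ces2a, Ces2c and Ces2g moved differently in SHP-KO, as described below.

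Of the 9 carboxylesterases, 6 fell in SHP-KO (Ces1d, Ces1f, Ces1g, Ces2a, Ces2b and Ces2c), 2 were higher (Ces2g and, by a small margin, Ces2e) and Ces1e was not called. The background was high: 70.6% of all tested genes were called, 35.4% as lower and 35.2% as higher. The median log2 fold change was -1.73 over the 9 genes, -1.83 over the 4 of Ces1 and -0.63 over the 5 of Ces2, against -0.012 over all tested genes. All 9 passed the filter on low counts, but Ces2b, with the fewest counts, passed through its WT libraries alone and so could pass only as a gene that is higher in WT. No span of these genes in the count files overlaps another gene.

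**Figure D1:**
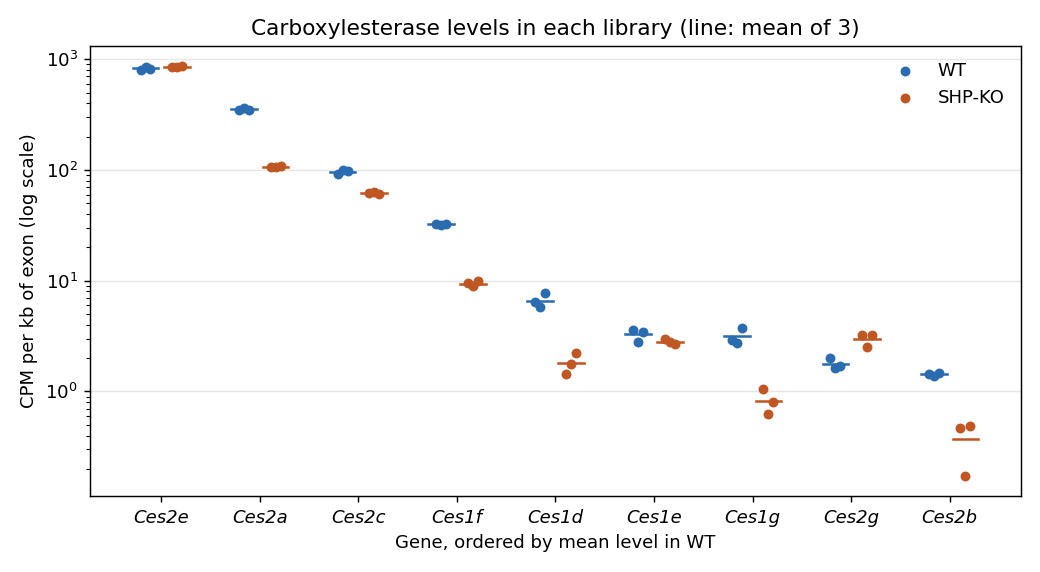
CPM per kb of exon on a log scale for the 9 carboxylesterases in each of 6 libraries, WT in blue and SHP-KO in orange, with a line at the mean of 3. Ces2e sits near 828 and 858 in the 2 groups, Ces2a drops from 353 to 107, and the Ces1e points of both groups overlap.

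RNA of segment and cell type markers also differed between the groups in the same libraries. Markers of the proximal small intestine were higher in 10 of 11 tested and lower in 1, with summed levels of 5916 to 5998 CPM in WT and 30053 to 30508 CPM in SHP-KO. Of 13 ileal markers, 7 were lower and 5 higher, with sums of 23732 to 23980 and 8242 to 8512 CPM. Enterocyte markers were higher in 6 and lower in 4 of 10, with sums of 92721 to 95336 and 97795 to 98293 CPM, a sum that moved little while its members moved both ways. Smooth muscle markers were higher in 10 of 10, from 235 to 243 CPM in WT and 1113 to 1161 CPM in SHP-KO, and goblet cell markers in 5 of 5, from 2544 to 2622 and 7260 to 7391 CPM. The 6 B cell markers summed to 70.4 to 73.2 CPM in WT and 1.02 to 1.38 CPM in SHP-KO, and since each passed the filter through its WT libraries alone, their count of lower calls says nothing more. Macrophage markers were mixed, with 3 higher and 2 lower of 6 tested and sums of 92.7 to 93.9 and 41.9 to 44.6 CPM that were carried by Lyz2, at 72.4 ± 0.87 and 12.3 ± 1.36 CPM (SD, n = 3). Since all 9 genes were read in bulk tissue, fewer cells of a type and less RNA per cell cannot be told apart, and the part of these marker differences in the carboxylesterase values was not tested.

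Liver and fat, where Ces1 enzymes abound, were checked by their own markers. Of 10 hepatocyte markers 3 were tested, and Cps1, which enterocytes also express, and Ttr were lower while Apoh was not called. Their summed level was 57.9 to 61.4 CPM in WT and 20.1 to 20.7 CPM in SHP-KO. Alb, the plasma albumin gene, had no WT count and 15 SHP-KO counts, and Fga and Fgb held 0 in every library. Of 7 tested adipocyte markers, Fabp4, Lipe and Cidec were higher and Pck1 was lower, while Car3, Plin4 and Cfd passed the filter through the SHP-KO libraries alone and so could pass only as higher there. The summed adipocyte level of 1957 to 1963 CPM in WT and 785 to 814 CPM in SHP-KO was carried by Pck1, which enterocytes also express. Adipoq, which defines fat cells, had 4 WT counts and 18 SHP-KO counts, and Lep had 0 and 4. Of 6 pancreatic acinar markers, 2 were tested and neither was called, with sums of 10.5 to 11.7 and 9.30 to 12.1 CPM, and Prss2, Amy2a5 and Cel were at 0 throughout.

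The Ces1 genes lie together on the minus strand of chromosome 8 (mm9). Ces1f, a lipase also known from lipid droplets of hepatocytes, was the most abundant of them and fell 3.46-fold. It spans 95780135 to 95803635 with 14 exon intervals. WT libraries held 62.9, 61.0 and 62.8 CPM and SHP-KO libraries 18.1, 17.1 and 18.9 CPM, or 62.2 ± 1.05 and 18.0 ± 0.92 (SD, n = 3). The groups were far apart and tight within, and the log2 fold change was -1.79 (SE 0.073, adjusted p 1.23e-38).

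Ces1d, the enzyme long studied as triacylglycerol hydrolase, fell 3.64-fold. Its 14 exon intervals lie between 95689971 and 95721703. Its level was 12.6, 11.3 and 15.1 CPM in WT and 2.80, 3.50 and 4.35 CPM in SHP-KO, a mean of 13.0 ± 1.94 against 3.55 ± 0.78 (SD, n = 3). Every SHP-KO library was below every WT library, and the log2 fold change was -1.87 (SE 0.16, adjusted p 1.41e-18).

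Ces1g, known in liver for lowering lipid output (esterase-x), fell 3.85-fold. It lies from 95826268 to 95861108 with 14 exon intervals. WT libraries held 92, 71 and 114 counts and SHP-KO libraries 19, 13 and 16, or 7.19 ± 1.26 and 1.89 ± 0.50 CPM (SD, n = 3). The groups did not overlap, and the log2 fold change was -1.94 (SE 0.21, adjusted p 1.66e-13).

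Ces1e, known as egasyn for anchoring beta-glucuronidase in the ER, was the Ces1 gene whose groups overlapped. It lies between Ces1d and Ces1f, from 95725117 to 95753518. Libraries held 7.45, 5.79 and 7.10 CPM in WT and 6.11, 5.80 and 5.61 CPM in SHP-KO, a mean of 6.78 ± 0.88 against 5.84 ± 0.25 (SD, n = 3). The lowest WT library lay inside the SHP-KO range. The log2 fold change was -0.23 (SE 0.16, adjusted p 0.193), and over all libraries 262 counts in WT stood against 150, a WT over SHP-KO ratio of 1.17 (95% counting interval 0.956 to 1.44).

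The Ces2 genes follow each other on the plus strand further along chromosome 8. Ces2a, an intestinal esterase and the second most abundant of the 9 per kb, fell 3.31-fold. It lies from 107257903 to 107265534. WT libraries held 683, 717 and 679.8 CPM and SHP-KO libraries 209, 207 and 211 CPM, or 693 ± 20.6 and 209 ± 1.97 (SD, n = 3). The log2 fold change was -1.73 (SE 0.031, adjusted p 4.24e-66). Among all tested genes ordered by CPM per kb, Ces2a went from rank 236 in WT to rank 797 in SHP-KO.

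Ces2b, which has the fewest counts of the 9, fell 3.83-fold. It lies from 107355544 to 107362552 with 12 exon intervals. Its counts were 37, 30 and 37 in WT and 7, 3 and 8 in SHP-KO, or 2.71 ± 0.083 and 0.71 ± 0.33 CPM (SD, n = 3). Every SHP-KO library was below every WT library, at log2 -1.94 (SE 0.34, adjusted p 4.43e-07), but the size is loosely fixed. Summed over libraries, its 104 WT counts stood against 18, a WT over SHP-KO ratio of 3.88 (95% counting interval 2.34 to 6.80).

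Ces2c, an acylglycerol and acylcarnitine hydrolase of the small intestine, fell by less, 1.54-fold. It lies from 107370968 to 107378382. WT libraries held 182, 195 and 192 CPM and SHP-KO libraries 123, 126 and 119 CPM, or 189.7 ± 7.02 and 123 ± 3.20 (SD, n = 3). The groups did not overlap, and the log2 fold change was -0.63 (SE 0.038, adjusted p 1.24e-26). Of the 100-base windows of its GENCODE M21 transcript (GRCm38), the length of the reads, 16.0% also occur in another gene's transcript (Ces2d-ps, Gm6831 or Gm8798), and 38.8% come within 3 mismatches of another carboxylesterase. Reads from such stretches could be lost or credited to the wrong gene, so the level of Ces2c is uncertain in that measure. For Ces2a the shared windows made up 10.7% (with Gm7208), for Ces2b 0.0907%, and for the other 6 genes 0.0%. Within 3 mismatches of another carboxylesterase came 7.25% of the Ces2b windows and 0.63% to 4.26% of those of the other 7 genes. The Ces2b transcript has 3408 bases, against 1895 exon bases in the counts. Both Ces2b shares are thus taken over bases that were partly not counted, and its share over the counted bases was not measured. The Ces2b transcript matched that of Ces2d-ps at 92.1% of aligned bases, with 1778 gap bases left out.

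Ces2g ran against Ces2a, Ces2b and Ces2c and rose 1.67-fold. It lies from 107485618 to 107493437 with 12 exon intervals. WT libraries held 79, 53 and 64 counts and SHP-KO libraries 73, 66 and 80, from smaller totals. In CPM these were 5.77, 4.65 and 4.84 in WT against 9.29, 7.22 and 9.17 in SHP-KO, or 5.08 ± 0.60 and 8.56 ± 1.16 (SD, n = 3). Every SHP-KO library was above every WT library, and the log2 fold change was 0.74 (SE 0.15, adjusted p 1.79e-05).

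Ces2e, the most abundant carboxylesterase in both groups, stayed within a few percent. It lies from 107450160 to 107458572. WT libraries held 2179, 2303 and 2225 CPM and SHP-KO libraries 2313, 2311 and 2326 CPM, or 2236 ± 62.6 and 2317 ± 8.18 (SD, n = 3). The ranges did not overlap, but WT replicate 2 lay just below the SHP-KO libraries. The log2 fold change of 0.05 (SE 0.023, adjusted p 0.0421) passed the threshold narrowly. The call was lost without any 1 library other than WT replicate 2, with log2 values of 0.027 to 0.050 and adjusted p up to 0.373, and the sign turned, to -0.0088 (adjusted p 0.778), with no filter on low counts. Ces2e ranked 77 in WT and 78 in SHP-KO among tested genes by CPM per kb.

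Ratios between family members within a library do not depend on library scaling, and 7 pairs were compared on counts per kb with 0.5 added to each count. The ratio of Ces2e to Ces2a, as log2, was 1.22, 1.23 and 1.25 in WT and 3.01, 3.02 and 3.00 in SHP-KO, a rise of 1.78. That of Ces2c to Ces2a was higher by 1.10 on the log2 scale in SHP-KO, and that of Ces2g to Ces2a by 2.47. Among Ces1 genes, the ratio of Ces1e to Ces1g was 0.29, 0.038 and -0.13 in WT and 1.46, 2.13 and 1.73 in SHP-KO, higher by 1.71. In these 4 pairs no SHP-KO library overlapped a WT library, which gives an exact two-sided permutation p of 0.10 each (adjusted over the 7 pairs 0.175), the smallest that 3 against 3 libraries allow. The genes of these pairs thus differed in their response by more than the spread between libraries, in a design that cannot reach a p under 0.05.

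The other 3 ratios overlapped between groups. Ces1d over Ces1g differed by 0.044 on the log2 scale (SHP-KO minus WT, SD of 0.045 in WT and 0.60 in SHP-KO, exact permutation p 1), Ces1f over Ces1g by 0.12 (SD 0.23 and 0.34, exact permutation p 0.50) and Ces2b over Ces2a by -0.23 (SD 0.082 and 0.76, exact permutation p 1). These pairs fell by sizes that could not be told apart at this depth, and their differences are loosely fixed: SHP-KO replicate 2, with 3 counts of Ces2b, had a Ces2b to Ces2a ratio of -9.03, against -7.73 and -7.71 in the other SHP-KO libraries. Without that library the difference of Ces2b over Ces2a was 0.21. Leaving out a library also turned the sign for Ces1d over Ces1g (-0.14 without SHP-KO replicate 2 and -0.12 without SHP-KO replicate 3) and for Ces1f over Ces1g (-0.0081 without WT replicate 3 and -0.023 without SHP-KO replicate 2).

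**Figure D2:**
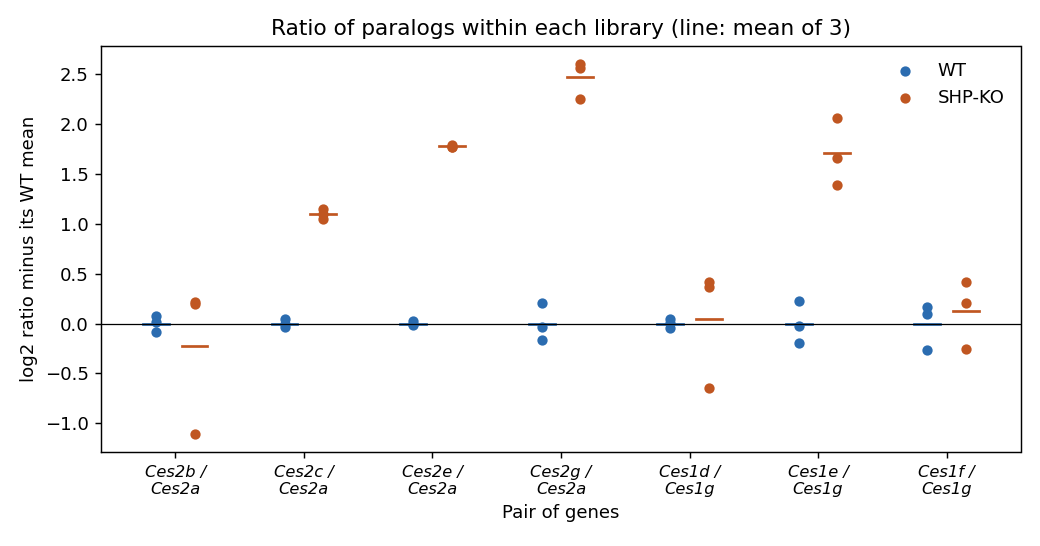
Log2 ratio of 2 family members within each library, less the WT mean of that pair, with WT in blue, SHP-KO in orange and a line at the mean of 3. Ces2c, Ces2e and Ces2g over Ces2a and Ces1e over Ces1g are higher in every SHP-KO library, by 1.10, 1.78, 2.47 and 1.71 on average, while the other 3 pairs overlap.

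The families therefore had another make-up in SHP-KO. Per kb, Ces2e held 64.7 ± 0.15% of the summed Ces2 level in WT and 83.3 ± 0.079% in SHP-KO (SD, n = 3), while Ces2a went from 27.6 ± 0.29% to 10.3 ± 0.072%. The share of Ces2c was 7.52 ± 0.15% in WT and 6.05 ± 0.17% in SHP-KO, and Ces2g and Ces2b were under 1% in every library. In Ces1, Ces1e went from 7.17 ± 0.69% to 19.0 ± 1.42%, and Ces1f, still the most abundant, from 71.5 ± 2.56% to 63.3 ± 0.17%. Ces1d held 14.5 ± 1.46% and 12.1 ± 2.35%, with overlapping libraries. The summed Ces1 level was 45.5 ± 2.28 CPM per kb in WT and 14.9 ± 0.74 in SHP-KO, 3.06-fold lower. The summed Ces2 level was 1281 ± 35.8 and 1031 ± 2.75 CPM per kb, 1.24-fold lower, since Ces2e holds most of it.

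**Figure D3:**
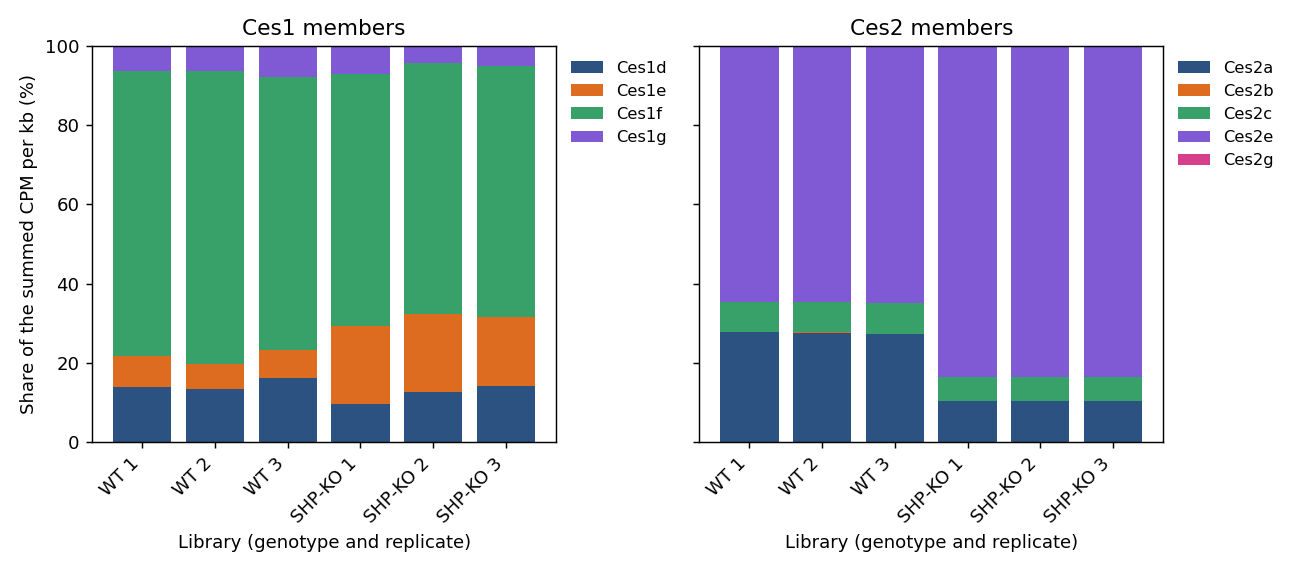
Share of the summed CPM per kb held by each of the 4 Ces1 genes (left) and the 5 Ces2 genes (right) in each library, stacked to 100%. Within Ces2 the Ces2e share is 64.6% to 64.8% in the WT libraries and 83.2% to 83.4% in the SHP-KO libraries, and within Ces1 the Ces1e share is 6.47% to 7.85% and 17.4% to 19.8%.

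Ordered per kb, the WT levels were 828 CPM per kb for Ces2e, 353 for Ces2a, 96.3 for Ces2c, 32.5 for Ces1f, 6.61 for Ces1d, 3.27 for Ces1e, 3.14 for Ces1g, 1.78 for Ces2g and 1.43 for Ces2b. Neighbours in that order had separate ranges over the 3 libraries except Ces1e and Ces1g. In SHP-KO the first 4 places were the same, at 858, 107, 62.3 and 9.41 CPM per kb. Ces2g at 2.99 and Ces1e at 2.82, whose ranges overlapped, then came before Ces1d at 1.81, Ces1g at 0.83 and Ces2b at 0.38. Ces2e exceeded Ces2a 2.35-fold in WT and 8.05-fold in SHP-KO.

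Position along the chromosome was set beside these values. The Ces1 cluster runs from 95544114 to 96059607 and, in the order Ces1d, Ces1e, Ces1f and Ces1g, the log2 fold changes were -1.87, -0.23, -1.79 and -1.94, so the gene that was not called sits between genes that fell. The Ces2 cluster runs from 107257903 to 107674009 with Ces2a, Ces2b, Ces2c, Ces2e and Ces2g at -1.73, -1.94, -0.63, 0.05 and 0.74 in that order. The genes that fell thus lie before those that did not, a description of 5 genes with no test.

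Genes around the clusters moved in both directions, as did 35.2% (higher) and 35.4% (lower) of all tested genes. Within 500 kb of the Ces1 cluster, 4 other genes were tested, of which 2 were higher and 1 lower (median log2 0.61). The nearest tested were Lpcat2, a lysophospholipid acyltransferase 100.9 kb before it (log2 -0.15, SE 0.34, adjusted p 0.699), and Gnao1, a G protein subunit of nerve cells 275 kb after it (log2 2.04, SE 0.21, adjusted p 1.3e-14). Of 23 tested genes within 500 kb of the Ces2 cluster, 8 were higher, a share near that background. Another 4 were lower, a share below that background (median log2 0.097 over the 23). Fam96b, 92.3 kb before the Ces2 cluster, was lower (log2 -0.74, SE 0.075, adjusted p 6.5e-15). So was Cbfb, a transcription factor subunit 20.6 kb after it (log2 -0.39, SE 0.11, adjusted p 0.00137). Both counts include genes that the low-count filter let in for 1 direction only. B3gnt9-ps (WT mean 0.73 CPM, SHP-KO mean 2.20 CPM) could not have entered by its WT libraries, so its only possible call was higher. Hsd11b2 (WT mean 4.23 CPM, SHP-KO mean 0.299 CPM) could not have entered by its SHP-KO libraries, so its only possible call was lower.

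**Figure D4:**
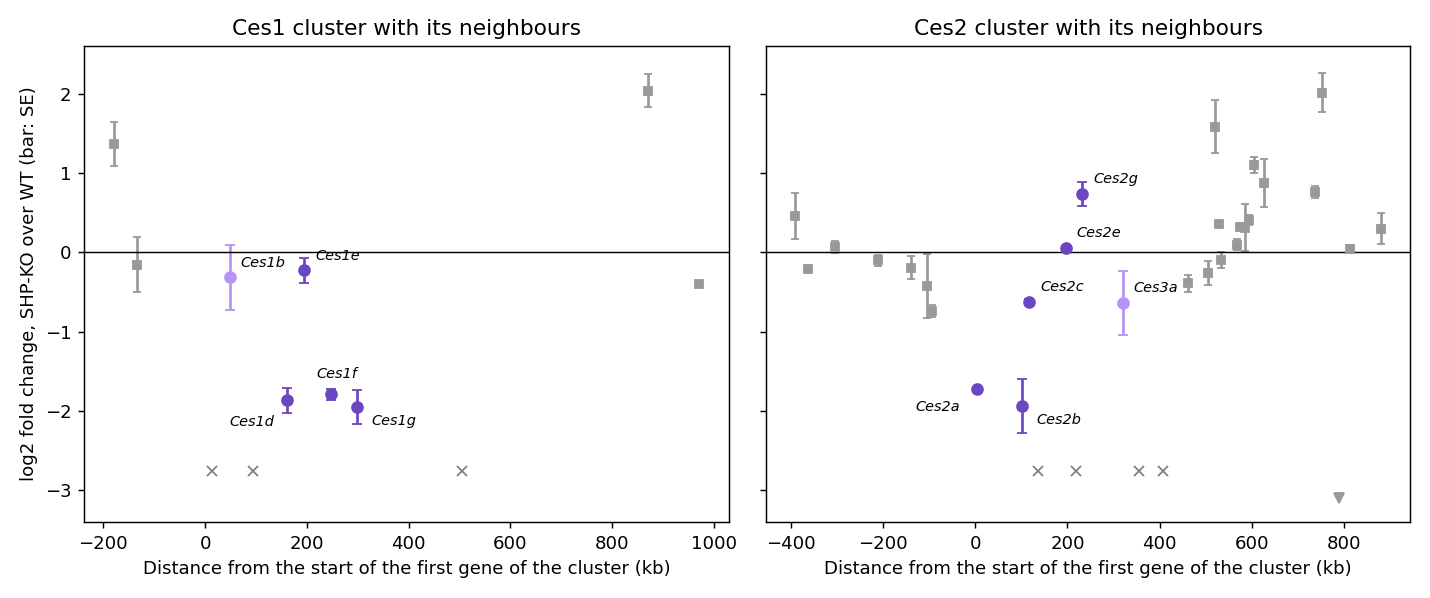
Log2 fold change with its SE against the distance in kb from the start of the first gene of the Ces1 (left) and Ces2 (right) cluster. Dark points are the 9 carboxylesterases followed here, light points are Ces1b and Ces3a, grey squares are other tested genes within 500 kb, a triangle is Hsd11b2 at -3.71, below the axis range, and crosses mark carboxylesterases with too few counts, which have a position but no value.

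The remaining carboxylesterases were scarce. Ces1b, at 39 WT counts against 21 (log2 -0.32, SE 0.41, adjusted p 0.494), and Ces3a, at 42 against 18 (log2 -0.64, SE 0.41, adjusted p 0.156), were tested and not called, and their groups overlapped. Another 7 had too few counts for the test. Ces3b held 2, 3 and 1 counts in WT and 6, 7 and 5 in SHP-KO, a summed ratio of 0.224 (WT over SHP-KO, 95% counting interval 0.0727 to 0.588), higher in every SHP-KO library. Ces2d-ps, a pseudogene close to Ces2c, held 4, 6 and 5 counts in WT and 9, 9 and 6 in SHP-KO, a ratio of 0.420 (0.205 to 0.833). Ces1c, a plasma esterase made in liver, held 17 and 23 counts, a ratio of 0.496 (0.249 to 0.970), with overlapping libraries. Ces1a and Ces2f held 3 counts each in all, and Ces4a and Ces5a were at 0 in every library.

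In the authors' deposited table, which called 34.6% of its 12939 genes at an FDR under 0.05, the same 6 carboxylesterases were lower: Ces1d at a log2 fold change of -1.88, Ces1f at -1.81, Ces1g at -1.95, Ces2a at -1.74, Ces2b at -1.95 and Ces2c at -0.65 (FDR 0.0230). In the authors' deposited table Ces2g was higher at 0.73 (FDR 0.0275), and neither Ces1e at -0.24 (FDR 0.575) nor Ces2e at 0.033 (FDR 0.940) passed. Both sets of values come from the same 6 libraries, so the table is no second measurement.

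Other enzymes with related substrates mostly moved too, in both directions, as did 70.6% of all tested genes. Of 16 tested neutral lipid hydrolases, 10 were higher and 6 lower, with a median log2 of 0.25. Lpl, among the higher, had 11, 4 and 13 counts in WT and 34, 18 and 23 in SHP-KO. It could not have passed the filter by its WT libraries and so could pass only as higher in SHP-KO. Plb1, the brush border phospholipase B, rose from 1203 ± 11.6 to 2747 ± 40.4 CPM (log2 1.19, SE 0.024, adjusted p 1.84e-62). Lipe, hormone-sensitive lipase, rose by 0.75 on the log2 scale (SE 0.039, adjusted p 3.97e-30), and is also on the adipocyte list. Aadac, an ER arylacetamide deacetylase that is on this list and the next, rose by 1.07 (SE 0.068, adjusted p 1.33e-25). Of 17 tested drug and ester hydrolases, 9 were higher, 6 lower and 2 not called, with a median of 0.21. Fap, among the higher, likewise could not have passed by its WT libraries (8, 18 and 9 counts, against 50, 39 and 47 in SHP-KO). Ephx2, the soluble epoxide hydrolase, was at log2 0.57 (SE 0.027, adjusted p 1.92e-33), and Esd, esterase D, at -0.61 (SE 0.035, adjusted p 1.29e-28).

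Of 15 receptors and factors reported to act on carboxylesterase genes, 5 were higher, 9 lower and 1 not called, with a median log2 of -0.50, beside 35.2% higher and 35.4% lower among all tested genes. The lower genes include the knocked-out Nr0b2 itself, which passed the filter through its WT libraries alone. Nr1i3, which encodes CAR, rose from 12.2 ± 1.21 to 71.4 ± 2.08 CPM (SD, n = 3), a log2 of 2.55 (SE 0.075, adjusted p 6e-49). Nr1i2, which encodes PXR, fell from 166 ± 1.19 to 118 ± 3.99 CPM (log2 -0.50, SE 0.039, adjusted p 1.79e-20). Nr1h4, which encodes the bile acid receptor FXR, fell from 106 ± 3.05 to 28.5 ± 1.51 CPM (log2 -1.90, SE 0.058, adjusted p 8.6e-48). Hnf4a, a receptor that maintains enterocyte and hepatocyte genes, was at log2 -0.71 (SE 0.027, adjusted p 6.2e-41), and Ppara, the fatty acid receptor, at -0.83 (SE 0.059, adjusted p 4.96e-23).

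Of 22 tested genes known as targets of CAR or PXR, 8 were higher, 6 lower and 8 not called, with a median log2 of 0.043, beside the 35.2% higher and 35.4% lower of all tested genes. Cyp2c29, among the higher, passed the filter through the SHP-KO libraries alone. Cyp2b10, the usual CAR reporter gene, was at 1.96 (SE 0.037, adjusted p 2.73e-64), Cyp3a11, the usual PXR reporter gene, at 1.25 (SE 0.028, adjusted p 1.21e-58), and Cyp3a25, of the same P450 family, at -1.13 (SE 0.041, adjusted p 1.38e-42). Ces2a, itself known as a PXR-responsive gene in liver, was lower in the same libraries, and a part of CAR or PXR in its level was not tested. Of 8 ER retrieval receptors and folding chaperones, 5 were higher and 3 lower, with a median of 0.37, against the same background. P4hb, the protein disulfide isomerase, was at 0.76 (SE 0.022, adjusted p 5.62e-49), and Kdelr1 and Kdelr3, receptors that return ER proteins from the Golgi, at 0.54 (SE 0.031, adjusted p 2.53e-28) and 2.42 (SE 0.15, adjusted p 8.82e-27).

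The genes most alike in profile were sought outside the carboxylesterases, by the Euclidean distance between log2(CPM + 0.5) values centred on their mean over the 6 libraries. Nearest to Ces1f were Tgfbi at a distance of 0.096, Epb4.1l1 at 0.114 and Slc30a1, a zinc exporter, at 0.133. Nearest to Ces2e were Prdx1, a peroxiredoxin, at 0.027, Fmn1 at 0.033 and Slc25a3, the mitochondrial phosphate carrier, at 0.038. With 2 groups of 3 libraries, such distances mostly order genes by the size of the difference between the groups.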

How the data were processed

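Per the labels' protocols, total RNA of 6 libraries was read at 100 bp on a HiSeq2000. Trimming with Trimmomatic 0.38 and alignment with STAR 2.6.0c are named in the submitters' processing notes, beside bcl2fastq 2.17.1.14, FastQC 0.11.5, edgeR (no version) and the build mm9, with settings not given in the sources used here. Counts per gene were deposited as whole numbers from featureCounts 1.5.2, per the file headers, summed over exons without regard to strand and without reads of several alignments. The authors' deposited table of the comparison holds log2 fold changes, log2 mean CPM and p-values with their FDR.

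From the counts, edgeR 4.0.16 in R 4.3.3 was run with TMM factors, filterByExpr (minimum count 10) and a robust quasi-likelihood fit of genotype over all 6 libraries, with no block, after a test on simulated data. The alternatives were other scalings and filters, DESeq2 1.42.0, limma-voom (limma 3.58.1), a non-robust fit, a block on replicate number, edgeR's exact test at a preset CV (coefficient of variation) of 0.2, leaving out each library, other pseudocounts and other windows. Total counts of 7956528 to 13511800 set the precision of low values. Sequences were compared with Biopython 1.88 and figures drawn with matplotlib 3.10.9.

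The genes and lists were chosen with earlier results of these data known, and 2 list genes, Ces1h and Ces2h, are not among the symbols of the count files. Named genes are the 9 carboxylesterases, others of the family (those under 10 counts added after their values were seen), up to 3 per list with the smallest p, the receptors Nr1i2, Nr1i3, Hnf4a, Nr1h4, Ppara and Nr0b2, the nearest tested gene on each side of a cluster, and the 3 nearest profiles. Marker genes, Hsd11b2 and the genes named for how they passed the filter (B3gnt9-ps, Lpl, Fap and Cyp2c29) were picked after their values were seen. Protein sequences were not used here.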

Additional observations from a re-analysis of the deposited data

How the results depend on the processing

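Of the 9 carboxylesterases, 8 kept their direction and their call (6 lower, Ces2g higher, Ces1e not called) in each of 15 alternative fits, and Ces2e did not. Its log2 fold change was 0.014 with no scaling factors, -0.0088 with no filter, 0.033 with a filter of 1 CPM in at least 1 library, 0.051 without robust estimation (adjusted p 0.0603), 0.033 in the exact test with a CV of 0.2, and 0.027 to 0.065 when 1 library was left out. The count of the 9 called higher was then 1 in the first 5 of these settings and 1 to 2 when a library was left out. The labels do not say whether the replicate numbers pair the libraries. Correlations of deviations from the group mean were 0.022, 0.028 and -0.0054 for equal numbers, against -0.030 to 0.0098 for unequal ones. With 3 libraries per group, these values cannot settle whether numbers pair. With the number as a replicate block, 6 of the 9 were again lower and 2 higher. Of the carboxylesterases outside the 9, 2 were called higher with no filter, 1 with the CPM filter, and 0 to 2 when a library was left out. In the exact test with a CV of 0.2 the counts were 3 lower among neutral lipid hydrolases, 4 higher and 2 lower among drug and ester hydrolases, 2 higher among receptors, 2 lower among CAR and PXR targets, and 2 higher and 0 lower among ER proteins. With a pseudocount of 2, the log2 ratio difference was 0.046 for Ces2b over Ces2a and -0.0023 for Ces1d over Ces1g. When 1 library was left out, the lowest and highest differences were -0.45 and 0.21 for Ces2b over Ces2a, -0.14 and 0.39 for Ces1d over Ces1g and -0.023 and 0.31 for Ces1f over Ces1g. Around the Ces1 cluster 1 gene was higher and 0 lower within 200 kb, and 6 lower within 1000 kb. Around the Ces2 cluster 5 were higher and 2 lower within 200 kb, and 17 higher and 9 lower within 1000 kb. The cause of these shifts was not tested, other than that windows and filters change which genes enter.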
